A study of Mus musculus with 8 samples.

Results

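The Cyp3a subfamily of cytochrome P450 genes was followed in the livers of female mice fed a western diet (WD) and given dihydrotestosterone (DHT), a potent androgen. The members were taken from the table by gene symbol. Of the 8 symbols in the rule, 7 had values, namely Cyp3a11, Cyp3a13, Cyp3a16, Cyp3a25, Cyp3a41a, Cyp3a44 and Cyp3a59, and Cyp3a41b had none. They stand among 14317 mouse genes with values, of which 14312 were tested, and all 7 passed the filter on low values. The question was how the excess androgen changes the RNA of these drug and steroid metabolizing enzymes.

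Con-Veh mice (n = 4) carried an empty vehicle pellet and Con-DHT mice (n = 4) a 10 mm silastic pellet of DHT, in both cases for 8.5 weeks on WD. The labels give the genotype of all 8 mice as WT. Per the methods of the study, pellets were implanted at 7 weeks of age. Total liver RNA was sequenced, with 1 library per mouse, and reads on mouse genes numbered 14240001 to 17815944 per Con-Veh library and 13123962 to 15205299 per Con-DHT library. Values are normalized counts, that is, reads divided by a size factor of the library, and 1 read was worth between 0.87 and 1.10 of them. Spreads are SDs over mice. All 6 hepatocyte markers examined were expressed, and limma, edgeR and DESeq2 called 0 of them, with 0, 1 and 2 at an unadjusted p of at most 0.05. Limma called 7.21% of all tested genes, a share at which 0 of 6 is no result about the markers. The most abundant was albumin (Alb), at 928458 ± 301650 in Con-Veh and 640916 ± 62135 in Con-DHT (log2 fold change −0.47, SE 0.40, adjusted p = 0.52 by limma). In bulk liver RNA, fewer cells of a type and less RNA per cell cannot be told apart.

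CYP3A enzymes are monooxygenases of the endoplasmic reticulum that oxidize steroids, bile acids and a large share of drugs and other foreign compounds. Their genes are classic targets of the xenobiotic receptors PXR (Nr1i2) and CAR (Nr1i3), and the enzymes take electrons from cytochrome P450 oxidoreductase (Por). Cyp3a11 is regarded as the main isoform of adult mouse liver, while Cyp3a16, Cyp3a41 and Cyp3a44 are known for higher expression in females than in males under the control of growth hormone.

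Of the 7 members, 5 passed the test as lower in Con-DHT and 0 as higher. The test was limma over all tested genes, with Benjamini-Hochberg adjusted p-values called up to 0.05, and it called 2.61% of all tested genes lower and 4.6% higher. Count tests on recovered reads called 5 members lower in edgeR, where 2.46% of tested genes were, and all 7 in DESeq2, where 4.51% were. Another scaling moved the balance of all calls, from 374 lower and 658 higher to 75 and 561 with spike-in RNA and to 208 and 1082 with totals equal outside the Mup genes, but left each member below 0. The group means of all 7 were lower in Con-DHT, and in 6 of them the groups did not overlap, which was so for 6.62% of tested genes. Cyp3a44, Cyp3a16 and Cyp3a41a fell to a few percent of their Con-Veh means, Cyp3a11 and Cyp3a59 fell to about 50.1% and 44.1%, and Cyp3a13 and Cyp3a25, at 60.2% and 77.1%, did not pass the test in limma. All 7 members kept a log2 fold change below 0 in each of the 20 other settings tried, and 4 of them (Cyp3a16, Cyp3a41a, Cyp3a44 and Cyp3a59) were called in every one.

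**Figure D1:**
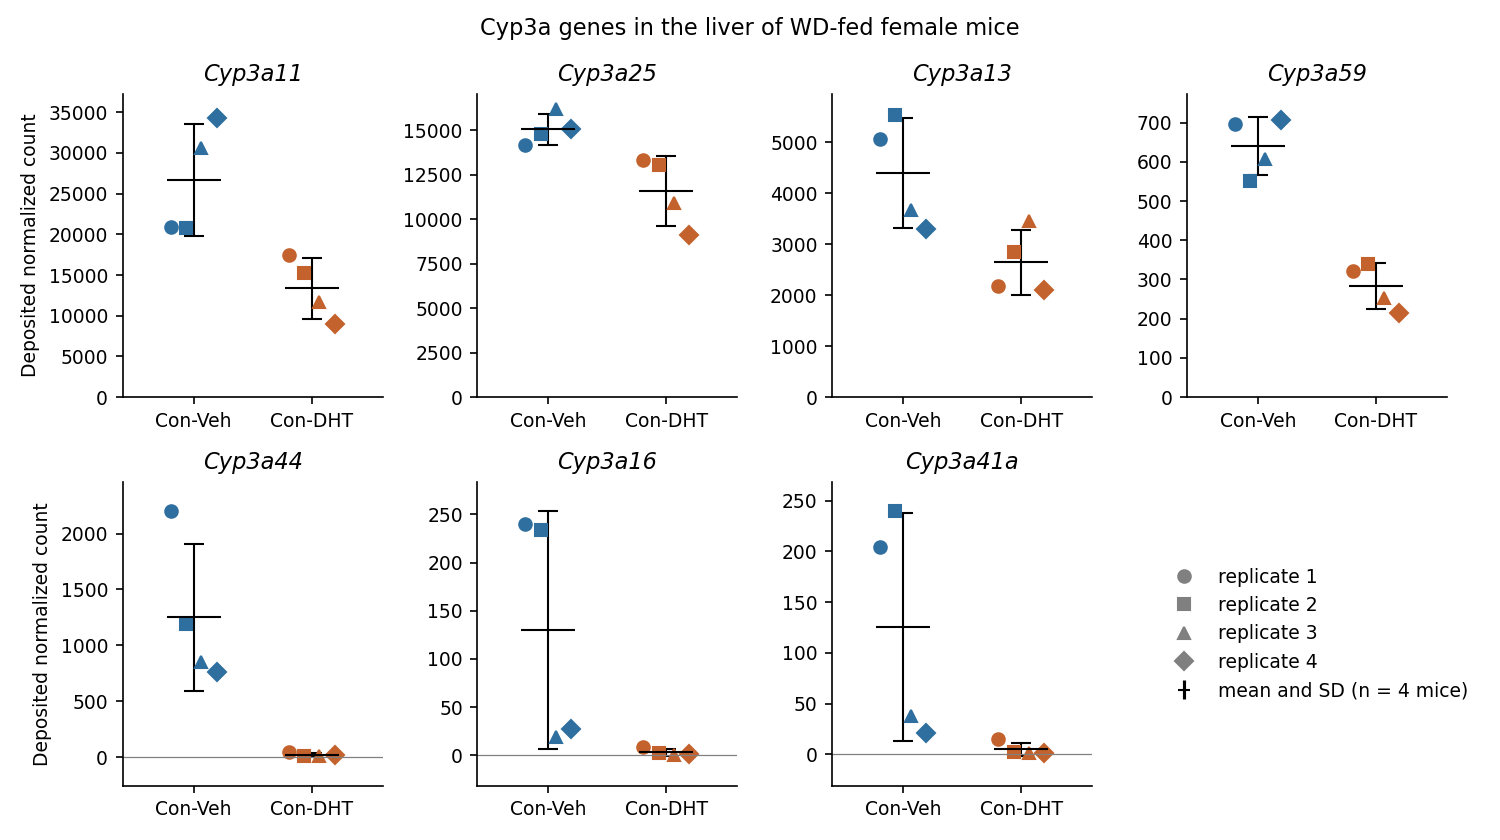
Normalized counts (linear vertical axes that include 0, a separate scale for each gene) of the 7 Cyp3a genes in the 4 Con-Veh and 4 Con-DHT livers, with the marker shape giving the replicate number and black bars the mean and SD. Cyp3a13 is the gene whose groups overlap, and Con-Veh 1 and 2 stand well above Con-Veh 3 and 4 for Cyp3a16 and Cyp3a41a.

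Cyp3a11 (ENSMUSG00000056035, chr5:145854426-145879964 of GRCm38, minus strand) encodes the broad-specificity enzyme through which PXR activation is usually read in mice. Its normalized counts were 20909, 20836, 30647 and 34267 in Con-Veh 1 to 4 and 17472, 15279, 11673 and 9035 in Con-DHT 1 to 4. The groups did not overlap, with Con-Veh 1 and 2 lying nearest to the Con-DHT livers and Con-DHT 4 lowest. The mean was 26665 ± 6850 in Con-Veh and 13365 ± 3748 in Con-DHT, which gave a log2 fold change of −1.01 (SE 0.23, 95% interval −1.52 to −0.49, adjusted p = 0.028 by limma). This call was lost without any 1 of 4 libraries: the adjusted p was 0.068 without Con-Veh 3, 0.075 without Con-Veh 4, 0.063 without Con-DHT 3 and 0.057 without Con-DHT 4, at log2 fold changes of −0.93, −0.87, −0.96 and −0.83. It was also lost in limma without the intensity trend (adjusted p = 0.057) and when libraries were scaled by their spike-in RNA (log2 fold change −0.81, adjusted p = 0.17).

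The RefSeq promoter window of Cyp3a11 (GRCm38.p6) is shown because the gene is the standard reporter of PXR. The stretch covers chr5:145879965-145880084 on the minus strand, from base 230 to base 111 before the RefSeq start, since the GENCODE annotation begins the gene 110 bases further upstream. Capitals mark a nuclear receptor half-site AGGTCA and, read on the opposite strand, the half-site AGTTCA, which PXR sites often contain.
Cyp3a11: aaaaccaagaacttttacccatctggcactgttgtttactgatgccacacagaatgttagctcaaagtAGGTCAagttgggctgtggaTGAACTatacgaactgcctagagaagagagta
AGGTCA on either strand was present in 16.3% of all 32851 promoter windows, and AGTTCA in 14%. Each window runs from 250 bases before the RefSeq start to 50 bases after it, and is longer than any stretch printed here. A match is a string of letters and not a measured binding site.

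Cyp3a44 (ENSMUSG00000054417, chr5:145773983-145805874, minus strand) encodes an isoform that female mouse liver is known to express more than male liver. It had the largest decrease of the family in limma, except that Cyp3a16 passed it with a pseudocount of 0.1. Its normalized counts were 2199, 1187, 854 and 766 in Con-Veh 1 to 4 and 43.2, 14.5, 10.2 and 23.9 in Con-DHT 1 to 4. The lowest Con-Veh liver was far above the highest Con-DHT liver. The mean was 1251 ± 657 in Con-Veh and 23.0 ± 14.6 in Con-DHT, and the log2 fold change was −5.77 (SE 0.43, 95% interval −6.73 to −4.82, adjusted p = 0.00015), the 7th lowest of the 14312 tested genes.

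Cyp3a16 (ENSMUSG00000038656, chr5:145436309-145469723, minus strand), known as an isoform of the fetal and female liver, was present at 240, 234, 19.0 and 27 in Con-Veh 1 to 4. In Con-DHT 1 to 4 it was present at 8.83, 1.94, 0 and 1.09, which came from 9, 2, 0 and 1 reads. The 0 in Con-DHT 3 allows a value of up to 3.06 (3 reads), for counting error only. Con-Veh 1 and 2 were high and Con-Veh 3 and 4 low, a 12.6-fold range, and every Con-Veh value was above every Con-DHT value. From a mean of 130 ± 123 to 2.96 ± 3.99, the log2 fold change was −4.75 (SE 0.94, 95% interval −6.83 to −2.67, adjusted p = 0.014). With so few reads in Con-DHT the estimate moved with the pseudocount, to −5.92 with 0.1 and −3.48 with 5, and it was −5.35 in edgeR on recovered reads. It was −5.39 without Con-Veh 3 and −5.36 without Con-DHT 1.

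Cyp3a41a (ENSMUSG00000075551, chr5:145694049-145720136, minus strand), another female-predominant isoform, followed a like course. Its normalized counts were 204, 239, 37.9 and 20.9 in Con-Veh 1 to 4 and 14.7, 1.94, 1.02 and 1.09 in Con-DHT 1 to 4. Here too Con-Veh 1 and 2 were high and Con-Veh 3 and 4 low, an 11.5-fold range, and Con-DHT 1 lay close to the lowest Con-Veh liver without reaching it. The mean went from 126 ± 112 to 4.69 ± 6.70 and the log2 fold change was −4.43 (SE 0.88, 95% interval −6.38 to −2.48, adjusted p = 0.015), and it was −4.97 and −3.37 with pseudocounts of 0.1 and 5, −5.12 without Con-DHT 1 and −5.06 without Con-Veh 4. The value of Cyp3a41a must be read with its copy in mind: the longest coding transcripts of Cyp3a41a and Cyp3a41b differ at 6 aligned bases (99.7% identical), and 82.9% of the 150-base windows of Cyp3a41a occur unchanged in Cyp3a41b. The authors kept uniquely mapped reads, so pairs that lie wholly in such shared sequence would not be counted, and how many were lost was not tested. Of the other members, Cyp3a25 and Cyp3a59 shared 13 windows of this length with each other, and Cyp3a11, Cyp3a13, Cyp3a16 and Cyp3a44 shared 0 with any Cyp3a transcript.

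These 3 genes lie in a row in the annotation, with Cyp3a41b and a pseudogene between Cyp3a16 and Cyp3a41a, and their promoter windows are nearly alike. Over the 250 bases before the RefSeq start, Cyp3a16 was 92.9% identical to Cyp3a44 and 91.3% to Cyp3a41a, Cyp3a41a was 94.4% identical to Cyp3a44, and each was 72.5% to 76.6% identical to Cyp3a11. Bases 230 to 31 before the start are printed to show what the strongly decreased members share. They cover chr5:145805905-145806104 for Cyp3a44, chr5:145469754-145469953 for Cyp3a16 and chr5:145720167-145720366 for Cyp3a41a, all on the minus strand of GRCm38.p6. Capitals mark AGGTCA (Cyp3a44), AGTTCA on the opposite strand (Cyp3a41a) and ATCAAT (all 3), the core of HNF6 (Onecut1) sites, a liver factor tied to female-biased P450 genes.
Cyp3a44: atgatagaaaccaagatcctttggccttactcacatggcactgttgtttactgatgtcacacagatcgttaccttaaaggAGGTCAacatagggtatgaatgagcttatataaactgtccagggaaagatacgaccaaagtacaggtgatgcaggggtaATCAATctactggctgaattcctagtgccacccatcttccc
Cyp3a16: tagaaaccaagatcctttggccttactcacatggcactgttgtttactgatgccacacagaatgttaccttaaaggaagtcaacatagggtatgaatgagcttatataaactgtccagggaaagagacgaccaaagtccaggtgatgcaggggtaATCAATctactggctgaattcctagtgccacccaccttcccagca
Cyp3a41a: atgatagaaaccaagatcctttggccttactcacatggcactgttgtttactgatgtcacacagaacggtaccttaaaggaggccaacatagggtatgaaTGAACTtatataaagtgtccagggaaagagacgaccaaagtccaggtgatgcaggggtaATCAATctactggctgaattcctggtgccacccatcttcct
ATCAAT, which was added to the motifs after these sequences had been seen, occurred in 7.54% of all promoter windows and in none of the windows of Cyp3a11, Cyp3a13, Cyp3a25 and Cyp3a59. Since it was picked from these sequences and the 3 windows are nearly alike, this contrast is a description and not a test. TATAAA, also searched, occurred in all 3, in Cyp3a11 and in 13.6% of all windows. The STAT5 motif TTCNNNGAA (8.3% of all windows) and a direct repeat of AGGTCA spaced by 1 base (0.0396%) had no match in the window of any member, which says only that these letters are not in these windows. Onecut1 itself did not pass the test (log2 fold change 0.29, adjusted p = 0.61).

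**Figure D2:**
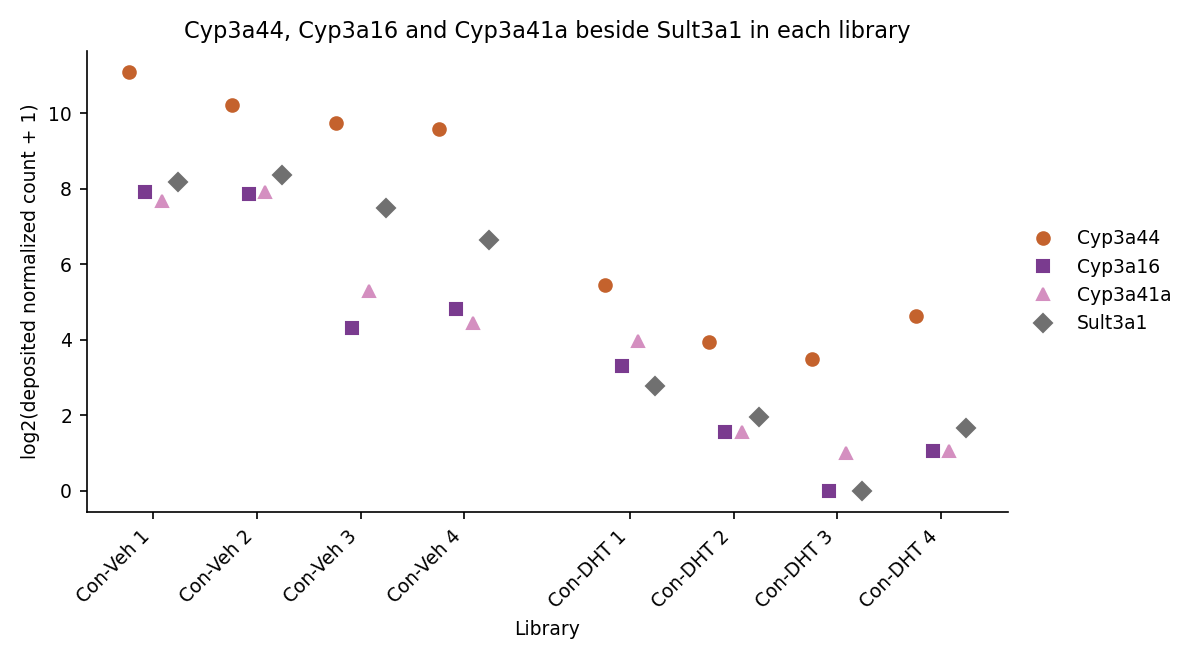
Values of Cyp3a44, Cyp3a16 and Cyp3a41a beside Sult3a1 in each library, as log2(normalized count + 1). All 4 genes are lower in the 4 Con-DHT livers, and Cyp3a16 and Cyp3a41a are lower in Con-Veh 3 and 4 than in Con-Veh 1 and 2.

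The genes most like these members in profile were looked for outside the family, by the root mean square difference of centred log2 values over the 8 libraries. The nearest to Cyp3a44 were the sulfotransferase gene Sult3a1 (difference 0.53) and Cyp2a4 (1.12), which encodes a steroid hydroxylase of the female liver. Sult3a1 fell from 224.7 ± 105 to 2.74 ± 2.43. For both Cyp3a16 and Cyp3a41a the nearest 3 genes were Sult3a1, Sult2a2 and Sult2a1, all sulfotransferase genes, at differences of 1.01 to 1.27. Cyp3a16 and Cyp3a41a were closer to each other (0.50) than to any of these. The nearness rests on 8 libraries in 2 groups and on low Con-DHT values, and is given as a description.

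Cyp3a59 (ENSMUSG00000061292, chr5:146079257-146113287, plus strand) and Cyp3a25 (ENSMUSG00000029630, chr5:145977194-146009618, minus strand) are a close pair at the far end of the cluster. Cyp3a25 is an abundant liver and gut isoform, and less is known of Cyp3a59. Their longest coding transcripts were 97.0% identical, against 72.3% and 72.5% to that of Cyp3a11. Cyp3a59 had normalized counts of 696, 550, 608 and 706 in Con-Veh 1 to 4 and 322, 341, 252 and 215 in Con-DHT 1 to 4. The groups were well apart and each was narrow. Its log2 fold change was −1.19 (SE 0.15, 95% interval −1.53 to −0.86, adjusted p = 0.0013), from a mean of 640 ± 74.3 to 282 ± 58.8.

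Cyp3a25 changed less. Its normalized counts were 14144, 14770, 16215 and 15047 in Con-Veh 1 to 4 and 13328, 13039, 10901 and 9128 in Con-DHT 1 to 4. The groups did not overlap, but Con-DHT 1 and 2 were close to the lowest Con-Veh liver. The means were 15044 ± 867 and 11599 ± 1971. The log2 fold change was −0.39 (SE 0.13, 95% interval −0.67 to −0.11, adjusted p = 0.094 by limma), which did not pass, while DESeq2 on recovered reads gave −0.38 with an adjusted p of 0.035. The ratio of Cyp3a25 to Cyp3a59 in normalized counts, not per length, was 23.8 ± 3.45 in Con-Veh and 41.3 ± 2.17 in Con-DHT, with no overlap between the groups. The change of this ratio was not tested.

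The promoter windows of the pair were 94.8% identical over 250 bases, with 54.9% to 57.5% identity to those of Cyp3a16 and Cyp3a44. They are shown to let the near-identical windows of the pair be compared. The stretches cover chr5:146009649-146009848 on the minus strand for Cyp3a25 and chr5:146079028-146079227 on the plus strand for Cyp3a59, bases 230 to 31 before the RefSeq start. Capitals mark AGGTCA on each strand.
Cyp3a25: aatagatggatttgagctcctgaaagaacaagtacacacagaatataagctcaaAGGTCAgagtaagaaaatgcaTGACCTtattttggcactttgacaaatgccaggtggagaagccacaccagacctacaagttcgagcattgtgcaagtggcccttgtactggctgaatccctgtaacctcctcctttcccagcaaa
Cyp3a59: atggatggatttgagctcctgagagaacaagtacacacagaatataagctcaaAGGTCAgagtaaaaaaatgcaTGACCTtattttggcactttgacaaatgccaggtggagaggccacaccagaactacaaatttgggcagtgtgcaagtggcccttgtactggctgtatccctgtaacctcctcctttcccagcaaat
Both windows hold the half-site once on each strand, at corresponding places.

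Cyp3a13 (ENSMUSG00000029727, chr5:137892932-137921619, minus strand) lies 7543 kb from Cyp3a16, apart from the main cluster, and is known from intestine as well as liver. Its normalized counts were 5072, 5533, 3678 and 3307 in Con-Veh 1 to 4 and 2184, 2854, 3461 and 2094 in Con-DHT 1 to 4. Con-DHT 3 was above Con-Veh 4, so the groups overlapped. The means were 4398 ± 1073 and 2648 ± 639. The log2 fold change of −0.73 (SE 0.20, 95% interval −1.17 to −0.29) had an adjusted p of 0.054 by limma. It passed without Con-Veh 4 (−0.86, adjusted p = 0.044), without Con-DHT 3 (−0.87, adjusted p = 0.032) and in DESeq2 (−0.73, adjusted p = 0.0058). Its promoter window was 52.2% to 59.6% identical to those of the other members and held none of the motifs.

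**Figure D3:**
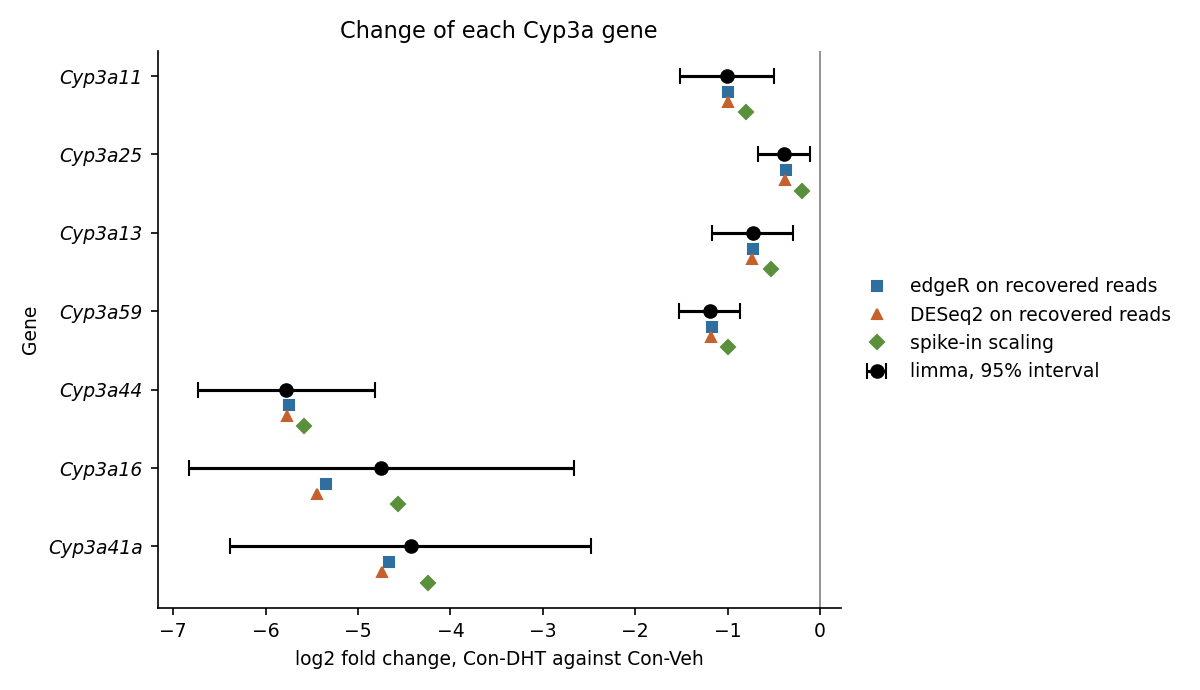
log2 fold change of each Cyp3a gene, Con-DHT against Con-Veh (horizontal axis). Black points are limma estimates with 95% intervals, and coloured points are the estimates of edgeR, DESeq2 and limma after spike-in scaling. All points lie below 0, with Cyp3a44 at −5.77 and Cyp3a25 at −0.39 as the extremes of limma.

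The libraries did not rank the members alike within Con-Veh. Con-Veh 1 and 2 had the higher values of Cyp3a13, Cyp3a16, Cyp3a41a and Cyp3a44, while Con-Veh 3 and 4 had the higher values of Cyp3a11. The gene nearest in profile to Cyp3a11 was Hsd17b6 (difference 0.11), a steroid dehydrogenase gene, which fell from 6070 ± 1716 to 2822 ± 682 (log2 fold change −1.09, adjusted p = 0.014), followed by Ifi44 and Nim1k. The nearest to Cyp3a59 were Cyp2c37, Oas3 and Ifi44 (0.23 to 0.24), those to Cyp3a13 were C3, Tmem176b and Cd302 (0.14 to 0.16) and those to Cyp3a25 were mt-Tp, Reps2 and Cotl1 (all 0.09).

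Summed over the 7 members, the normalized counts were 43463, 43349, 52058 and 54141 in Con-Veh 1 to 4 and 33372, 31531, 26298 and 20498 in Con-DHT 1 to 4. The groups did not overlap, and the Con-DHT mean (27925 ± 5787) was 57.9% of the Con-Veh mean (48253 ± 5661). Without Cyp3a11, the member with the most counts, it was 67.4%. As a share of the values of all mouse genes, the family took 0.314% ± 0.0390 in Con-Veh and 0.193% ± 0.0400 in Con-DHT.

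The make-up of the sum shifted along with its size. Sum and shares are in normalized counts, not per length, so members with longer annotated exons weigh more. Cyp3a11 contributed 54.6% ± 7.72 in Con-Veh and 47.3% ± 3.91 in Con-DHT, with overlapping groups. Cyp3a25 contributed 31.4% ± 2.68 in Con-Veh and 41.8% ± 1.94 in Con-DHT, without overlap, so that the least changed member gained weight. Cyp3a16, Cyp3a41a and Cyp3a44 together were 6.08%, 3.83%, 1.75% and 1.5% of the sum in Con-Veh 1 to 4 and 0.20%, 0.058%, 0.043% and 0.13% in Con-DHT 1 to 4. Con-Veh 1 had the highest share of these female-predominant members and Con-Veh 4 the lowest.

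**Figure D4:**
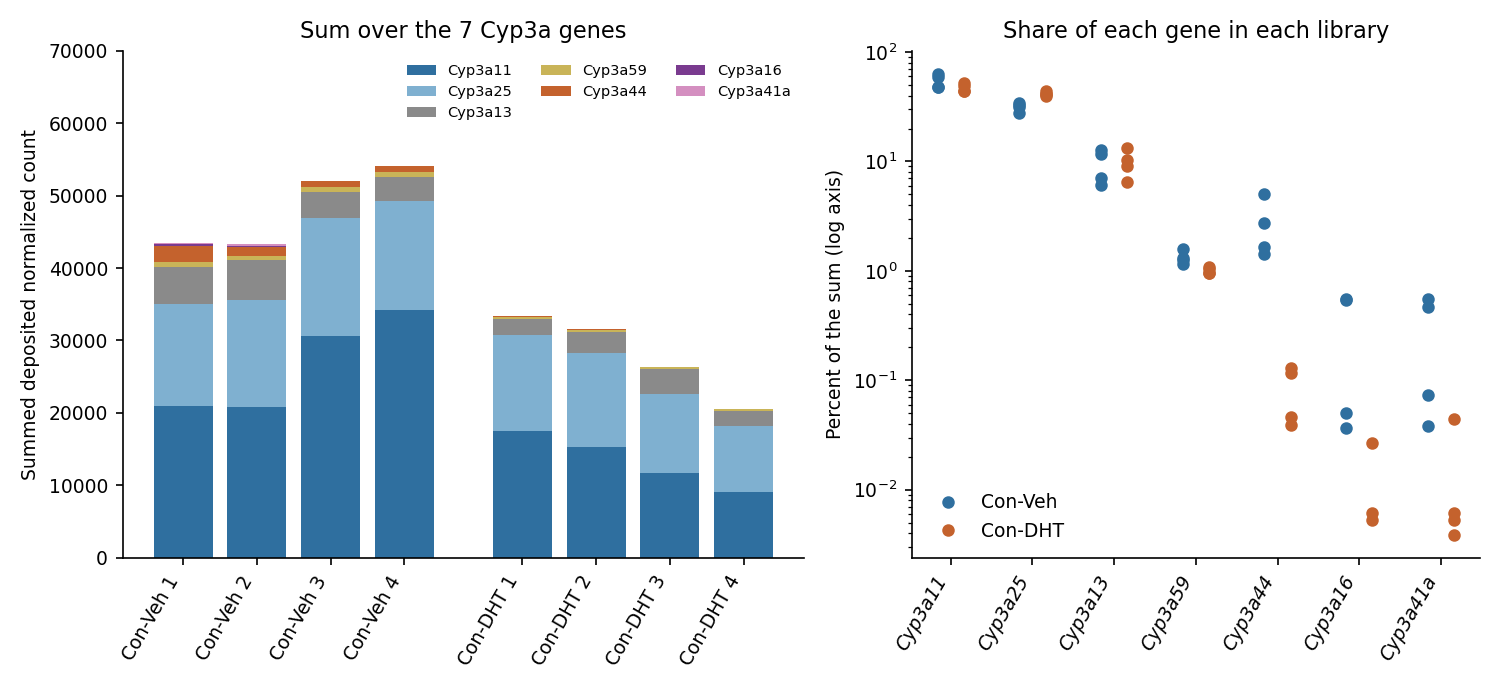
Left, summed normalized counts of the 7 Cyp3a genes in each library, stacked by gene, from 0. Right, percent of that sum taken by each gene in each library on a log axis, without the Con-DHT 3 value of Cyp3a16, which is 0. The Con-Veh sums lie between 43349 and 54141 and the Con-DHT sums between 20498 and 33372.

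Levels can be compared between genes only per length. Per kb of annotated exon, the order of the Con-Veh means was Cyp3a25 (7222 ± 416), Cyp3a11 (5236 ± 1345), Cyp3a13 (1488 ± 363), Cyp3a44 (638 ± 335), Cyp3a59 (320 ± 37.1), Cyp3a16 (75.0 ± 71.3) and Cyp3a41a (61.0 ± 54.5). Among neighbours in this order, Cyp3a13 and Cyp3a44 overlapped, as did Cyp3a16 and Cyp3a41a. Cyp3a11 has annotated exons of 5093 bases in all but a coding length of 1512 bases, close to the other members, and per kb of coding length it came first (17635 ± 4530) before Cyp3a25 (9969 ± 575). In Con-DHT, Cyp3a59 (141 ± 29.4 per kb of exon) stood above Cyp3a44 (11.7 ± 7.46), the reverse of their Con-Veh order.

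The genes around the cluster were examined for a shift shared by the region, where 7.21% of all tested genes were called by limma, a share at which a set of 10 holds few calls. No tested gene outside the subfamily lies between Cyp3a16 and Cyp3a59. Of the 10 nearest tested genes before Cyp3a13, 0 were called by limma, edgeR or DESeq2 (2 had an unadjusted p of at most 0.05 in limma), and of the 10 after Cyp3a59, limma called 1, Gm8494, which rose from 4.58 ± 0.87 to 22.0 ± 1.66 (log2 fold change 2.05, adjusted p = 0.0018), and DESeq2 also called Lnx2 and Rpl21 lower. Of the 10 before Cyp3a16, a set added after the values were seen, 0 were called by limma, edgeR or DESeq2 (limma gave 0 with unadjusted p-values up to 0.05), with a median log2 fold change of 0.02 against −0.01 for all tested genes.

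**Figure D5:**
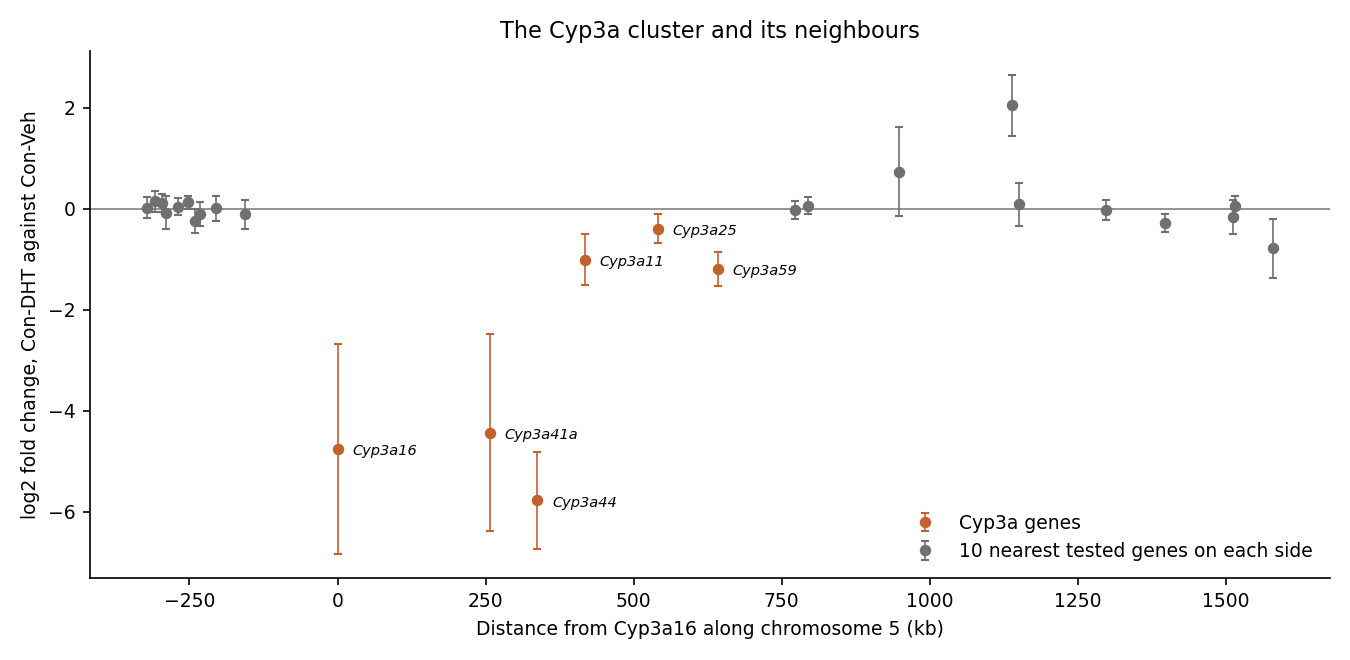
log2 fold change with 95% interval of the 6 clustered Cyp3a genes and of the 10 nearest tested genes on each side, by distance from Cyp3a16 along the chromosome (kb). The neighbours lie between −0.78 and 2.05, with Gm8494 the highest, and the Cyp3a genes lie between −0.39 and −5.77.

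The receptors and liver factors that are known to act on Cyp3a genes were examined as a list. Of 25 tested, 2 were lower, 0 were higher (0 in edgeR and DESeq2 as well) and the median log2 fold change was 0.04. Limma called 8% of the list and 7.21% of all tested genes in either direction, so the count is no result about these factors. Nr1i2 (PXR) was 1762 ± 115 in Con-Veh and 1668 ± 246 in Con-DHT (log2 fold change −0.09, adjusted p = 0.66), and Nr1i3 (CAR) was 5175 ± 1211 and 4794 ± 1155 (−0.11, adjusted p = 0.80). The nuclear receptor gene Hnf4a did not pass either (−0.23, adjusted p = 0.22). Among those that fell was Foxa2, a pioneer factor of liver enhancers (−0.54, adjusted p = 0.033), which stayed called in 1 of 8 refits, each with 1 library removed, and not with spike-in scaling (adjusted p = 0.88).

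Genes listed as other targets of PXR and CAR were called in both directions. Of 20 tested, 5 fell and 1 rose, where 2.61% of all tested genes were lower and 4.6% higher, and their median log2 fold change was −0.36. Ugt1a1, which conjugates bilirubin, fell from 3606 ± 83.7 to 2031 ± 216 (−0.83, adjusted p = 0.00044), and this call held in all 8 refits but not with spike-in scaling (−0.63, adjusted p = 0.36). The uptake transporter gene Slco1a4 (−0.87, adjusted p = 0.020), the aldo-keto reductase gene Akr1b7 (−2.07, adjusted p = 0.020), Cyp2b9 (−3.98, adjusted p = 0.030) and Sult2a1 (−5.35, adjusted p = 0.036) also fell, and Aldh1a7, an aldehyde dehydrogenase gene, rose (0.85, adjusted p = 0.023). They stayed called in 6, 5, 2, 2 and 5 of the 8 refits, in that order, and Sult2a1 was not called by edgeR or DESeq2. Removing 1 library moved Cyp2b9 between −4.64 (without Con-DHT 3) and −2.82 (without Con-DHT 4), and Sult2a1 between −6.57 (without Con-DHT 1) and −4.34 (without Con-Veh 1, adjusted p = 0.072). Sult2a1 was −7.14 and −3.93 with pseudocounts of 0.1 and 5, and Cyp2b9 was −3.12 in both edgeR and DESeq2. In limma without the intensity trend Cyp2b9, Sult2a1 and Aldh1a7 were not called (adjusted p = 0.066, 0.076 and 0.056). Sult2a1 was at 1115 normalized counts in Con-Veh 1 against 131, 82.9 and 27 in Con-Veh 2 to 4. Its groups overlapped, since it was at 41.2 in Con-DHT 1. With spike-in scaling Slco1a4 was not called either (−0.67, adjusted p = 0.30). Cyp2b10, the usual CAR reporter, was 87.0 ± 34.8 in Con-Veh and 33.1 ± 35.5 in Con-DHT and did not pass (−1.86, adjusted p = 0.12). It passed without Con-DHT 2 (−2.51, adjusted p = 0.021) and with spike-in scaling (−1.67, adjusted p = 0.00029). The spike-in fit gave a smaller change than the main fit, with an SE of 0.37 against 0.65. It was −1.26 without Con-DHT 4 (adjusted p = 0.20), −1.37 in edgeR (adjusted p = 0.20) and −1.39 in DESeq2 (adjusted p = 0.29).

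Among 18 genes of electron transfer to P450 enzymes and of heme supply, 1 was called, a share close to the 7.21% of all tested genes, while 8 had p-values of 0.05 or less before adjustment. It was Hmox1, the heme-degrading oxygenase (−0.56, adjusted p = 0.021), which stayed called in 6 of the 8 refits but not with spike-in scaling (adjusted p = 0.87) or totals equal outside the Mup genes (adjusted p = 0.051). DESeq2 also called Cpox higher. Por, which every CYP3A enzyme depends on, was 19894 ± 3324 in Con-Veh and 20138 ± 3831 in Con-DHT (0.01, adjusted p = 0.98). Among 16 genes of growth hormone action and sex-biased transcription, 1 fell and 1 rose, beside 2.61% of all tested genes lower and 4.6% higher. In limma, 5 of the 16 had an unadjusted p of at most 0.05. Prlr, the prolactin receptor, fell (−1.22, adjusted p = 0.0060, in all 8 refits), and Bcl6, a repressor that is higher in male liver, rose (0.93, adjusted p = 0.045, in 2 of the 8 refits). The groups overlapped for Bcl6.

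Zonal markers were compared because Cyp3a RNA is known to be richer near the central vein. Where 7.21% of all tested genes were called, limma called 0 of the 9 pericentral markers (1 at an unadjusted p of at most 0.05) and 0 of the 8 periportal markers (3 at that p). edgeR called 0 of either (1 and 3 at that p), and DESeq2 called Lgr5 lower and Cyp2f2 higher. Glul, the sharpest pericentral marker, was 21645 ± 2010 in Con-Veh and 19396 ± 1555 in Con-DHT (−0.16, adjusted p = 0.41). The summed pericentral markers, led by Cyp2e1, were 218295 ± 16055 and 226462 ± 27703.

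Some markers of other liver cells were lower, beside 2.61% of all tested genes. Of 6 Kupffer cell and macrophage markers, 3 fell, namely Cd68 (−0.61, adjusted p = 0.015), Vsig4 (−0.57, adjusted p = 0.011) and Clec4f (−0.40, adjusted p = 0.039). Their sum, led by Clec4f, was 3596, 3804, 3243 and 3859 in Con-Veh 1 to 4 and 3109, 2413, 2646 and 2421 in Con-DHT 1 to 4. Of 6 endothelial markers, 2 fell, Stab2 (−0.55, adjusted p = 0.018) and Lyve1 (−1.26, adjusted p = 0.039), and their sum, led by Stab2, was 3259, 3480, 3349 and 3620 in Con-Veh 1 to 4 and 2399, 2778, 2536 and 2669 in Con-DHT 1 to 4. Both sums were lower in Con-DHT without overlap, while the groups overlapped for Clec4f and Lyve1 taken alone. Cd68 and Vsig4 stayed called in all 8 refits, Stab2 in 6, and Clec4f and Lyve1 in 2 each. With spike-in scaling Cd68, Vsig4, Stab2 and Clec4f were not called (adjusted p of 0.84, 0.87, 0.88 and 0.93), and edgeR did not call Lyve1. The part of these cells in the Cyp3a values was not tested. Limma, edgeR and DESeq2 called 0 of the 5 cholangiocyte markers (0 at an unadjusted p of at most 0.05 in limma) and 0 of the 6 stellate markers (1 at that p). The lymphocyte marker Ptprc and the gut marker Fabp2, the only ones of their lists with values, were not called either, and none of the kidney markers had a value.

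The Cyp3a members were set beside the other P450 genes, which were added after the values were seen. Of 59 P450 genes outside the subfamily, 11 were lower and 8 higher, against 2.61% and 4.6% of all tested genes. Among 12 Cyp2c genes, 7 were lower and 1, Cyp2c67, was higher, and among 7 Cyp2a and Cyp2b genes, 4 were lower and 0 higher, or 3 and 0 in edgeR, which did not call Cyp2a22. The median log2 fold change was −0.85 for the Cyp2c genes, −2.88 for the Cyp2a and Cyp2b genes and −0.08 for all 59. Cyp2b9 and Cyp2b10 were also counted in the list of PXR and CAR targets. Whether the Cyp3a members differ from these P450 families was not tested.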

How the data were processed

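RNA from 8 livers (4 Con-Veh, 4 Con-DHT, 1 library per mouse) was grouped by the treatment given in the labels. The authors trimmed reads with Trimmomatic, aligned them with STAR, used featureCounts (Subread) to count the uniquely mapped reads on exons, and ran DESeq2. The submitters' processing notes name GRCm39, and positions and sequences here come from GENCODE M21 and RefSeq on GRCm38. The values the authors deposited are a normalized signal, counts divided by 1 size factor per library. The table has 14371 rows, of which 54 are ERCC spike-ins, and no row has fewer than 81 reads over the 8 libraries.

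Dividing by the smallest step of each column turned 100% of values into whole reads (tolerance 0.01), with 13123962 to 17815944 reads on genes per library. Group differences were tested by limma 3.58.1 (R 4.3.3, intensity trend) on log2(value + 1). A mean of 10 or more kept 14312 mouse genes, and p-values were adjusted by Benjamini-Hochberg over all of them, with a threshold of 0.05. A fold change is thus on the log2(value + 1) scale, which understates changes of low genes. edgeR 4.0.16 (quasi-likelihood) called 1024 genes on the recovered reads and DESeq2 1.42.0 called 1569. Tests were tried on simulated counts first. The 95% intervals come from limma and the spread between mice, and the floor of 3 reads covers counting error only. Libraries of 1 group differed far beyond sampling noise and each was counted as a replicate.

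The members and lists were chosen with earlier results of these data known. Named genes are all members, every called gene of the lists, Nr1i2, Nr1i3, Hnf4a, Por, Cyp2b10, Alb and Glul, and for each member the 3 most alike genes with a mean of at least 50. Some items that this rule takes in are not reported here. Sums, shares, sequence identity (pairwise global alignment) and plots used Python 3.11.15. The alternatives were pseudocounts of 0.1 and 5, a filter at 50 or none, scaling by spike-ins, by TMM or by totals that exclude the Mup genes, limma without the trend or with array weights, the replicate block, both count tests, and refits that each drop 1 library.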

Additional observations from a re-analysis of the deposited data

Results flagged for a closer look

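Among 22 combinations of a measure and a group that were examined for a value far from the other 3, 1 stood out. Cyp3a41a in Con-DHT 1 was 14.7, with the next highest Con-DHT liver at 1.94. These values rest on 15 and 2 reads. Chance flags about 1 in 20 groups.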

How the results depend on the processing

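Limma called 1032 genes in all, 374 of them lower and 658 higher. Without the trend, with the replicate block and with spike-in scaling, Cyp3a11 was no longer called (log2 fold changes −1.01, −1.01 and −0.81), and 4 members remained. DESeq2 called all 7 members, with Cyp3a13 at −0.73 and Cyp3a25 at −0.38. Spike-in scaling shifted the median of all tested genes to 0.19 and called 636 genes, 75 lower and 561 higher. It ended the calls of Ugt1a1, Slco1a4, Foxa2, Hmox1, Cd68, Vsig4, Stab2 and Clec4f, and made that of Cyp2b10 (−1.67). Relative to that median Cyp3a11 was at −0.99. Nr1i2 (0.11), Nr1i3 (0.091) and Glul (0.042) changed sign there without passing a test, as did Nr1i2 (0.010) with totals equal without the Mup genes, where 208 genes were lower and 1082 higher. A mean of at least 50 left 648 called genes, the fit without the trend 8 list genes against 16 and DESeq2 1569 genes (646 lower). With the replicate block, 249 genes were called lower, 11 list genes were called and Cyp3a11 had an adjusted p of 0.085. Same-numbered livers did not deviate together (correlations of −0.19 to −0.0060), so the numbers were not taken to pair the mice. Leaving out 1 library each gave 638 to 897 called genes, 178 to 315 lower ones, 8 to 14 list genes, Cyp3a11 from −1.15 to −0.83, Cyp3a13 from −0.87 to −0.61, Cyp3a16 from −5.39 to −4.19, Cyp3a41a from −5.12 to −3.90, Por from −0.12 to 0.15 and Nr1i3 from −0.28 to 0.016. Apart from Cyp3a11, the block changed no member's call. The cause of these shifts was not tested. Cyp3a41b had no values, so it could not be summed with Cyp3a41a. Depth limits Cyp3a16 and Cyp3a41a in Con-DHT, where most libraries had at most 3 reads.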
